A study of Mus musculus with 8 samples.

Results

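The genes examined here encode the subunits of the mitochondrial respiratory chain and of ATP synthase, with the factors that assemble them. Members were taken by name from the array's own gene annotation. The rule took names that start with Nduf, Uqcr or Atp5, names that start with Cox followed by a digit, and Sdha, Sdhb, Sdhc and Sdhd. It found 96 of 28146 gene names, measured by 138 probes, and 93 of the 96 passed the filter on dim probes. By name, 41 belong to complex I, 4 to complex II, 8 to complex III, 26 to complex IV and 17 to complex V (ATP synthase). By role, 74 are subunits found in most cell types, 11 are assembly factors and 7 are isoforms used mainly in muscle, heart, lung or testis. Cox7a2l, Atp5s and Atp5sl are associated genes, and Cox4nb, now called Emc8, belongs to a complex of the endoplasmic reticulum and carries the name of its neighbour Cox4i1.

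Mouse small-intestinal organoids, crypt-like epithelial structures grown in culture, were profiled on 8 Agilent arrays with 2 colours in 3 experiments, each on a slide of its own. Every culture, controls included, was exposed to 4OH-tamoxifen for 16 h, which activates CreERT2. In experiment 1, 2 arrays set Ascl2 transduced organoids, in which the pulse started Ascl2 from a CMV promoter and RNA was taken after 24 h, against VillinCreERT2 organoids. Replicate 2 had its dyes swapped. In experiment 2, Tcf7l2null organoids, Tcf7l2null/Ascl2 over expressing organoids and Ascl2 over expressing organoids had 1 array each against dsGFP transduced organoids. In experiment 3, Ascl2null organoids had 1 array against VillinCreERT2 organoids. A self-self array in each of experiments 2 and 3 carried the same control RNA in both dyes and measures dye bias and technical spread. In VillinCreERT2, the Villin promoter limits Cre to the intestinal epithelium. Whether the pair of arrays in experiment 1 had separate cultures behind them is not stated in the labels, and the p-values therefore cover only the spread among arrays. The control of experiment 3 is VillinCreERT2 by its genotype label, while its description names Ascl2loxp/loxp. The genotype label was used here, and which of them the Ascl2null array was set against is not settled.

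Complex I (NADH dehydrogenase) and complex II (succinate dehydrogenase) pass electrons from NADH and succinate to ubiquinone, complex III (cytochrome bc1) passes them on to cytochrome c, and complex IV (cytochrome c oxidase) passes them to oxygen. Complexes I, III and IV pump protons, and ATP synthase uses the returning protons to make ATP. In the intestine, stem cells at the crypt base and absorptive enterocytes differ in their use of glycolysis and oxidative phosphorylation. The nuclear genes of the chain are often described as regulated together, through NRF1, GABPA, YY1 and the oestrogen-related receptors (ERR), with the coactivator PGC-1alpha (Ppargc1a).

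Promoter windows of 300 bases, from 250 before to 50 after the RefSeq start site (GRCm38.p6), were matched to 63 of the 74 subunits. They were searched on both strands for GCGCANGCG (NRF1), TCAAGGTCA (ERR), CCGGAAG (GABPA) and AAGATGGCG (YY1). Matches of different motifs overlapped in 0 of the subunits and in 4 of all symbols. The NRF1 letters were present in 20 of the 63 subunit promoters (31.7%), against 7.03% of all 27025 gene symbols with a window. The GABPA letters were present in 16 (25.4% against 9.93%), the YY1 letters in 7 (11.1% against 1.64%) and the ERR letters in 2 (3.17% against 0.466%). At least 1 of the 4 motifs was present in 35 of the 63 (55.6%), against 16.9% of all symbols. Forms of the NRF1 and YY1 motifs with a further base, searched first, were present in 17 (27% against 5.19%) and 5 (7.94% against 0.995%). Both subunits with the ERR letters also held the NRF1 letters, and are shown here with the matched letters in capitals: Atp5g3, a c-ring subunit of ATP synthase (chr2:73911277-73911576, minus strand), and Sdhd, a membrane anchor of complex II (chr9:50603800-50604099, minus strand). They are followed by Cox7a1, the chain gene with the largest difference in these data (chr7:30183921-30184220, plus strand), and its common isoform Cox7a2 (chr9:79759804-79760103, minus strand). Neither of the latter windows held any of the 4 motifs.
Atp5g3: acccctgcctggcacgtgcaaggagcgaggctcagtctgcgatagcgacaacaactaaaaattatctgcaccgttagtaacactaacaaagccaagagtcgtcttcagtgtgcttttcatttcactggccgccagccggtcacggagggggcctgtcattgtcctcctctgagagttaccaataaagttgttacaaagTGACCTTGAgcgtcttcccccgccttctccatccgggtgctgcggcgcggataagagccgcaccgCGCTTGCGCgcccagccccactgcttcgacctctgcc
Sdhd: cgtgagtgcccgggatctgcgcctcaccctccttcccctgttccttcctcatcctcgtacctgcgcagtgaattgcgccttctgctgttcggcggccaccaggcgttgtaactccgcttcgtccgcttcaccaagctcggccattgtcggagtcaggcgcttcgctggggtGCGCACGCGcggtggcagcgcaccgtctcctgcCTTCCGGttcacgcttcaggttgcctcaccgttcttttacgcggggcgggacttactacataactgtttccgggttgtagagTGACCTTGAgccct
Cox7a1: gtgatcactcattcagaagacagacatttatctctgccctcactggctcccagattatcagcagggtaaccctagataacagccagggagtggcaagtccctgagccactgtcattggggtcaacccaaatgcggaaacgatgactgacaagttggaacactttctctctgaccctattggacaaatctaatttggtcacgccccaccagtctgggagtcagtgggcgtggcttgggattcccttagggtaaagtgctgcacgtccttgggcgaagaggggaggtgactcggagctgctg
Cox7a2: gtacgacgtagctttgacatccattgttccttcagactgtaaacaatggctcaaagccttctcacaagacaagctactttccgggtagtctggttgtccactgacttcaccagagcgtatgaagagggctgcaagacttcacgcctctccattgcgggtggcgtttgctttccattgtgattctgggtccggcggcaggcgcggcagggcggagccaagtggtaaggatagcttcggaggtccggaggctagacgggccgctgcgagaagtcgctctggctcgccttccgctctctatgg

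Each value is the log2 of the condition's signal over that of the control in the other dye, and a gene is the mean of its probes. The probes of the chain genes were bright, with a median log2 intensity of 13.8 against 8.0 over all probes past the filter, and 92 of the 93 measured members were well above background in both channels on all 8 arrays. Of the 5 epithelial markers, Epcam lay between -0.58 and 0.27 over the arrays. With Ascl2 overexpression 1 of the 5 was higher and 2 were lower at an unadjusted p under 0.05 (limma), against 12.4% of all genes in either direction. After adjustment 0 of the 5 passed. The markers of fibroblasts, blood and endothelium had medians between -0.10 and 0.21 on the condition arrays. The labels could not be checked on the targeted gene. The single Ascl2 probe was at -0.31 and 0.12 on the Ascl2 transduced arrays, -0.72 on the Ascl2 over expressing array, -0.93 on the Tcf7l2null/Ascl2 over expressing array and -1.07 on the Ascl2null array, and the sources used here do not give which part of Ascl2 the construct carries. Conditions are named by the labels, and every direction rests on them. Marker lists also moved between experiments. The crypt base stem cell markers had medians of 0.82 and 0.43 in experiment 1 and -1.11 on the Ascl2 over expressing array of experiment 2, and the enteroendocrine markers -1.06, -1.04 and 3.16. In bulk RNA, fewer cells of a type and less RNA per cell cannot be told apart.

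The chain genes moved little on every array. At or beyond 1.5-fold in either direction lay 1 of 93 on replicate 1 and 4 of 93 on replicate 2 of the Ascl2 transduced organoids, against 4.94% and 6.43% of all genes. In experiment 2 the count was 1 of 93 for Ascl2 over expressing organoids (6.21% of all genes), 1 of 92 for Tcf7l2null organoids (5.61%) and 1 of 92 for Tcf7l2null/Ascl2 over expressing organoids (8.24%). Ascl2null organoids had 4 of 93 (10.3%). The self-self arrays had 1 of 93 in experiment 2 (0.376%) and 2 of 93 in experiment 3 (2.46%), so the members' count on most condition arrays was at the level of the same RNA set against itself. Genes at least as bright as the members' lower quartile, 2388 in all, moved more than genes in general. Between 11.6% and 18.5% of them were at or beyond 1.5-fold on the 6 condition arrays, and 0.928% and 5.16% on the self-self arrays. At 2-fold, Cox7a1 was the only chain gene on any array, on the Ascl2 over expressing array (1.8% of all genes) and the Tcf7l2null array (0.846%).

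**Figure D1:**
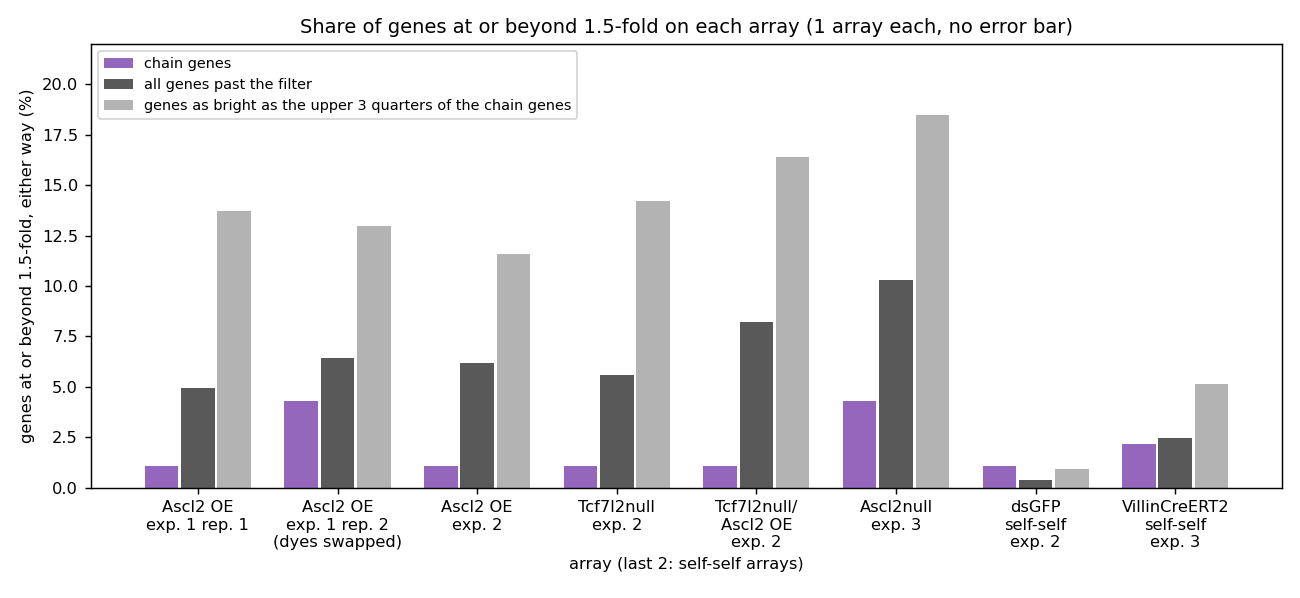
Percent of genes at or beyond 1.5-fold, higher or lower, on each array, for the chain genes, all genes past the filter, and genes at or above the chain genes' lower quartile of brightness. On the 6 condition arrays the chain genes lie between 1.08% and 4.3% and all genes between 4.94% and 10.3%.

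The medians of the 74 common subunits were as small. They were 0.02 and -0.09 on the Ascl2 transduced arrays, whose dyes were swapped, and -0.03 for the mean of the pair. They were 0.03 on the Ascl2 over expressing array, 0.02 on the Tcf7l2null array, 0.04 on the Tcf7l2null/Ascl2 over expressing array and 0.15 on the Ascl2null array. The self-self arrays gave 0.09 and -0.04, so only the Ascl2null median lay outside the pair of self-self medians on the high side, and the median of replicate 2 on the low side. The median over all genes lay between -0.0042 and 0.011 on the 8 arrays, since loess sets it near 0. With median centring in place of loess the bright probes kept their dye trend. The dsGFP self-self array then had a subunit median of 0.69. The arrays of experiment 2 had medians between 0.48 and 0.62, so those ratios by themselves carry no direction. Less that self-self array, the subunit medians were -0.25 for Tcf7l2null, -0.10 for Ascl2 over expressing and -0.08 for Tcf7l2null/Ascl2 over expressing organoids. With loess they were -0.08, -0.02 and -0.03. The bright genes had -0.08, -0.09 and -0.10 under median centring. The median of all genes on replicate 1 was 0.39 under median centring.

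**Figure D2:**
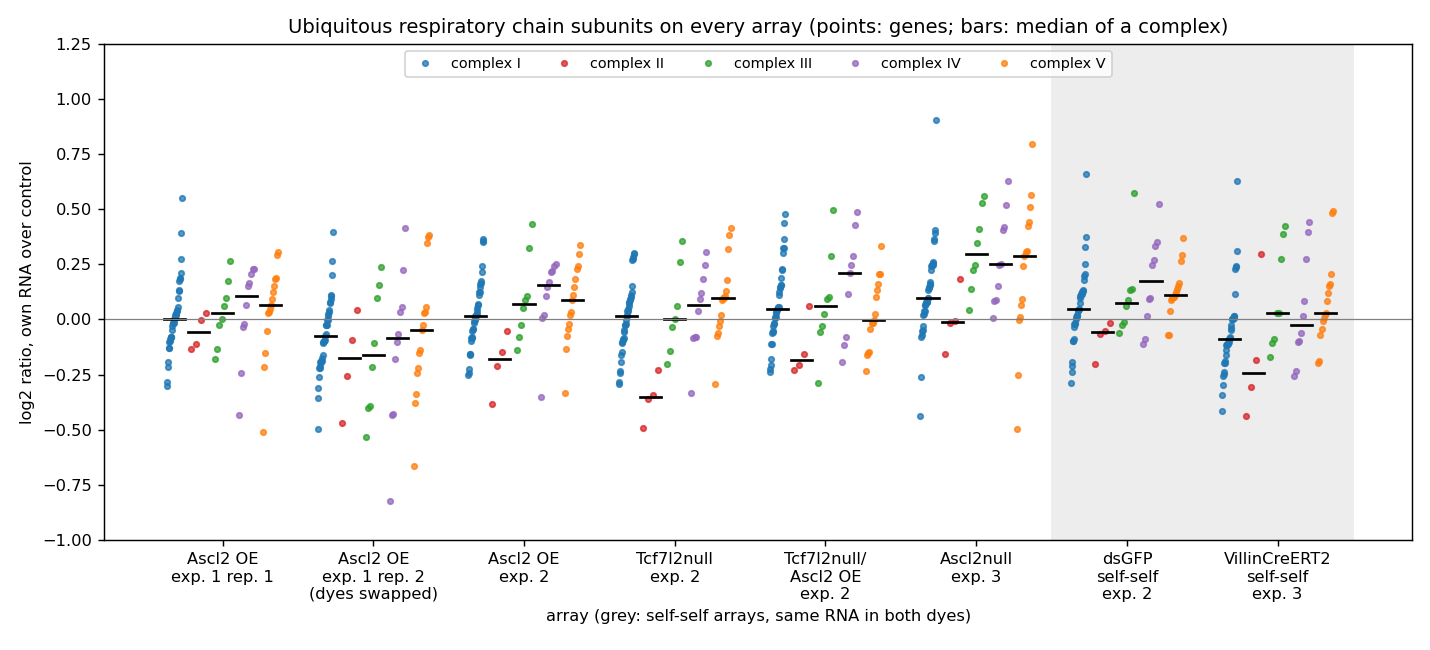
Log2 ratio of own RNA over control (vertical axis) of the 74 common subunits on each of the 8 arrays, by complex, with the median of each complex as a bar. The medians of all 74 lie between -0.09 and 0.15, and on the Ascl2null array 61 of the 74 points lie above 0.

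The question of the overexpression arrays is whether Ascl2, a transcription factor of crypt stem cells, changes chain gene expression. No member passed over the 3 arrays of Ascl2 transduced and Ascl2 over expressing organoids (limma, Benjamini-Hochberg over 19166 genes, adjusted p under 0.05), where 15 genes passed, 0.0783% of those tested. The fit shares 1 effect over arrays with different controls, VillinCreERT2 in experiment 1 and dsGFP transduced organoids in experiment 2. Stem cell and enteroendocrine markers moved in opposite directions in these experiments, so the shared effect averages unlike states. Without replicate 1 or replicate 2 of experiment 1, 0 genes passed limma's test (2326 and 653 at an unadjusted p under 0.05), and without the array of experiment 2, 199. At an unadjusted p under 0.05 were 8 of the 93 members, 4 higher and 4 lower, against 12.4% of all genes. The estimates of the subunits were small, between -0.42 and 0.25. Their median standard error was 0.094 and the largest 0.19, beside a median of 0.10 over all genes. These errors cover only the spread among arrays. The lowest was Atp5g3, at -0.21 and -0.67 in experiment 1 and -0.13 in experiment 2. All 3 were below 0, but the Tcf7l2null array gave -0.29, and the self-self arrays 0.29 and 0.21. Its fitted difference was -0.42 ± 0.08 (SE, 3 arrays, limma adjusted p = 0.12).

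Cox5a, which encodes a nuclear subunit of complex IV, was at -0.25, -0.44 and -0.35 on the same arrays and fitted at -0.34 ± 0.10 (limma adjusted p = 0.24). It was also at -0.33 on the Tcf7l2null array and -0.26 on the self-self array of experiment 3, so its values overlap those of same-RNA arrays. Uqcrfs1, the Rieske iron-sulfur protein of complex III, was at -0.18, -0.53 and -0.08 and fitted at -0.31 ± 0.10 (limma adjusted p = 0.28). On the positive side, Ndufc2 of complex I was at 0.28, 0.20 and 0.24 (fitted 0.25 ± 0.10, limma adjusted p = 0.39), and Cox6b1 of complex IV at 0.17, 0.41 and 0.01 (fitted 0.23 ± 0.09, limma adjusted p = 0.39). Atp5g2, which encodes the same c-ring protein as Atp5g3, was on the opposite side at 0.12, 0.38 and 0.15 (fitted 0.23 ± 0.09, limma adjusted p = 0.37). By complex, the medians of the fitted differences were 0.01 for complex I, -0.13 for complex II, -0.01 for complex III, -0.02 for complex IV and -0.05 for complex V, and 0.01 over all genes. No chain gene passed the test of experiment 2 against experiment 1 either, where 137 genes passed (0.716% of 19140), and 4 members had an unadjusted p under 0.05 (8.4% of all genes). Without replicate 1 of experiment 1, 28 genes passed. That test sets a single array against technical spread.

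Apart from Cox5a and Uqcrfs1, given above, the catalytic and core subunits had fitted differences below 2 standard errors in size with Ascl2 overexpression. The 7 core subunits of complex I, which carry its flavin and iron-sulfur clusters, had fitted differences between -0.09 (Ndufv2) and 0.12 (Ndufv1). Of complex II, Sdha and Sdhb were at -0.12 ± 0.11 and -0.15 ± 0.09 (SE). Of complex III, the core proteins Uqcrc1 and Uqcrc2 were at 0.02 ± 0.13 and -0.08 ± 0.10 (SE), the latter in a fit that lacks its Tcf7l2null value, an outlier spot. Of complex IV, Cox4i1 was at -0.05 ± 0.09, in a fit that lacks its Tcf7l2null/Ascl2 over expressing value, and Cox5b at 0.10 ± 0.09. Of ATP synthase, the alpha subunit Atp5a1 was at -0.09 ± 0.08 and the beta subunit Atp5b at 0.06 ± 0.14. Single arrays of experiment 1 showed larger values. Ndufa10 of complex I was at 0.55 and -0.03 and Ndufs8 at 0.39 and -0.19, so the other array did not share them. Atp5e was below 0 on both, at -0.51 and -0.24, but at 0.34 on the Ascl2 over expressing array of experiment 2.

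Cox7a1, the heart and muscle isoform of complex IV subunit 7a, was the chain gene with the largest difference. Its single probe (mm9, chr7:30970337-30970948) was well above background in both channels on every array. It was at -0.96 and -0.80 on the Ascl2 transduced arrays, -1.57 on the Ascl2 over expressing array and -1.06 on the Tcf7l2null array. It was at 0.10 on the Tcf7l2null/Ascl2 over expressing array, 0.12 on the Ascl2null array, and 0.15 and -0.13 on the self-self arrays. Its values on the 3 overexpression arrays and the Tcf7l2null array were thus below those on the other 4 arrays. This division was read from Cox7a1 itself, and how many of all genes share it was not counted. It also sets the Tcf7l2null/Ascl2 over expressing array, which carries the overexpression label too, apart from the 3 overexpression arrays. The fitted difference with Ascl2 was -1.07 ± 0.15 (SE, 3 arrays, limma adjusted p = 0.069), which missed the threshold. It passed with no dye term (-1.11, limma adjusted p = 0.023) and without the array of experiment 2 (-0.88, limma adjusted p = 0.037), and did not pass in the remaining alternatives.

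Cox7a2, which encodes the isoform of the same subunit used in most tissues, did not share that pattern. It was at 0.21, 0.23 and 0.24 on the overexpression arrays, 0.31 on the Tcf7l2null array, 0.21 on the Tcf7l2null/Ascl2 over expressing array and 0.42 on the Ascl2null array, beside 0.09 and 0.27 on the self-self arrays. Its values on the condition arrays therefore exceeded the higher self-self value on 2 arrays only. The other tissue isoforms past the filter, Cox4i2, Cox6a2 and Cox6b2, stayed between -0.22 and 0.38 on all arrays, and Cox7b2, Cox8b and Cox8c did not pass the filter.

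Ppargc1a, which encodes the coactivator of mitochondrial gene expression, was also low on the 4 arrays where Cox7a1 was low. It was at -0.94 and -0.80 on the Ascl2 transduced arrays, -0.64 on the Ascl2 over expressing array, -0.83 on the Tcf7l2null array, 0.23 on the Tcf7l2null/Ascl2 over expressing array and 0.14 on the Ascl2null array. The self-self arrays gave -0.03 and -0.03. Its fitted difference with Ascl2 was -0.79 ± 0.09 (SE, 3 arrays, limma adjusted p = 0.057). It was singled out from 14 listed regulators, outside the rule for named genes. Of the 14, 3 were lower and 0 higher at an unadjusted p under 0.05 (limma), against 12.4% of all genes in either direction. Enterocyte markers moved beside Cox7a1 and Ppargc1a. All 7 were below 0 on both Ascl2 transduced arrays, with medians of -0.67 and -0.84, and 6 of 7 on the Ascl2 over expressing array (median -0.54). All 6 measured markers were below 0 on the Tcf7l2null array (median -0.67). Medians were 0.10 on the Tcf7l2null/Ascl2 over expressing array and 1.22 on the Ascl2null array, where Cox7a1 stayed at 0.12. The 5 muscle markers had medians between -0.08 and 0.27 on the condition arrays. Des lay between -0.13 and 0.18 on all arrays, and Acta1 between 1.09 and 2.21 on the 4 arrays with low Cox7a1 and between -0.16 and 0.69 on the others. The part of these markers in the Cox7a1 values was not tested.

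**Figure D3:**
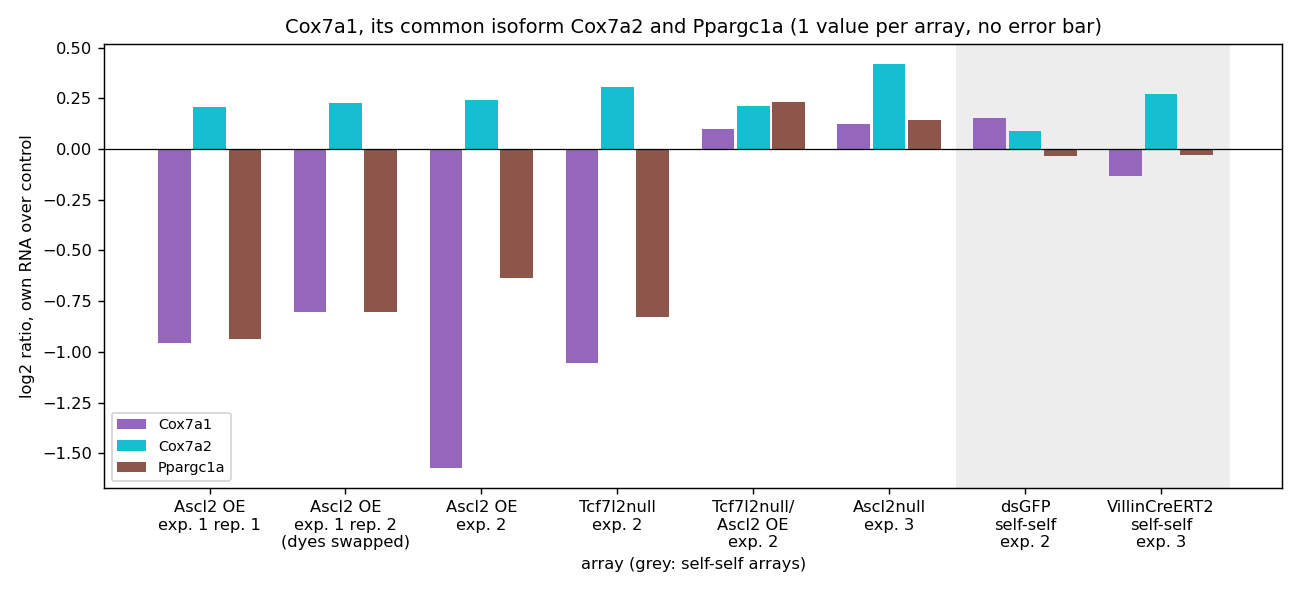
Log2 ratio of own RNA over control of Cox7a1, its common isoform Cox7a2 and the coactivator gene Ppargc1a on each array, as bars from 0. Cox7a1 and Ppargc1a are between -0.64 and -1.57 on the 3 overexpression arrays and the Tcf7l2null array and between -0.13 and 0.23 on the other 4, while Cox7a2 is above 0 on all 8.

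Loss of Tcf7l2, the transcription factor that acts with beta-catenin at Wnt target genes, was measured on 1 array, so no test applies. Of the 73 measured subunits 39 were above 0, against 50.3% of all genes, and 24 after the self-self value of the slide was taken off, against 50.5%. With median centring and the self-self value taken off, 8 of 73 were above 0, with a median of -0.25. The bright genes then had a median of -0.08 and all genes -0.02, and their shares above 0 were not counted. Ascl2null organoids processed in that way had 64 of 74 above 0 and a median of 0.19. The bright genes there had a median of 0.01 and all genes -0.03. In the loess ratios of the Tcf7l2null array all 4 complex II genes were below 0. Sdha (the flavoprotein) was at -0.23, Sdhb (the iron-sulfur subunit) at -0.34, and the membrane anchors Sdhc and Sdhd at -0.36 and -0.49. With the self-self array of the slide taken off, the 4 genes stayed below 0 with a median of -0.25. They were also below 0 on the Ascl2 over expressing array of the slide, at -0.21, -0.05, -0.15 and -0.38, and on its self-self array, at -0.05, -0.02, -0.20 and -0.07. Sdhd was also at -0.44 and Sdhc at -0.31 on the self-self array of experiment 3, so values of this size occur between portions of the same RNA. Under median centring, where the bright probes keep their dye trend, Sdhd was at 0.0034 on the Tcf7l2null array. The largest positive subunit values there were Atp5c1 (the gamma subunit of ATP synthase) at 0.41, Atp5e (the epsilon subunit) at 0.38 and Uqcrh (the hinge protein of complex III) at 0.36, beside 0.37, 0.09 and 0.57 on the self-self array of the slide.

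Tcf7l2null/Ascl2 over expressing organoids were compared with Tcf7l2null organoids by the difference of the 2 arrays, which share control and dye orientation. It has no replicate check. Of 91 members 5 were at or beyond 1.5-fold, against 16.6% of all genes. Cox7a1 was 1.16 higher, from -1.06 to 0.10. Cox17 was at -1.04, but its probes disagreed, as described with the assembly factors. Ndufv3, an accessory subunit of complex I, was 0.77 higher, from -0.29 to 0.48. Its 3 probes differed in size, and the brightest went from -0.02 to 0.17. Cox7a2l, a factor that joins complexes III and IV into supercomplexes, was 0.66 higher, from -0.45 to 0.21, and the assembly factor Cox16 0.63 higher, from 0.00 to 0.64. Sdha, Sdhb, Sdhc and Sdhd were all higher, by 0.07 to 0.40. The median over 72 subunits was 0.03, against 0.02 over all genes.

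With loess, Ascl2null organoids gave the broadest shift of the chain genes, small in most genes. Of the 74 subunits 61 were above 0, against 50.9% of all genes and 54.3% of genes at or above the members' lower quartile of brightness. On the slide's self-self array 33 of the 74 were above 0, and on the dsGFP self-self array 52 of 74, so counts away from an even split also occur with the same RNA in both dyes. The SD of the subunit median over the pair of self-self arrays was 0.093. It comes from arrays of different experiments and controls. It is for the median of a single array and does not measure the spread of a difference of arrays. With the self-self array of the slide taken off, 65 of 74 were above 0 (49.9% of all genes, 54.4% of the bright genes). The median was then 0.18 against 0.00 over all genes. The 8 ways of processing reuse the same pair of arrays and do not measure the spread between arrays. Under them this difference kept its size, with medians between 0.17 and 0.19 and 61 to 65 subunits above 0, median centring included. The single ratio did not, its median being 0.02 under median centring. All 8 complex III genes, all 10 complex IV subunits and 34 of 37 complex I subunits were above 0 in the difference, with 3 of 4 in complex II and 10 of 15 in complex V. Few of these genes moved by much, since 3 of 93 members were at or beyond 1.5-fold, against 9.31% of all genes.

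**Figure D4:**
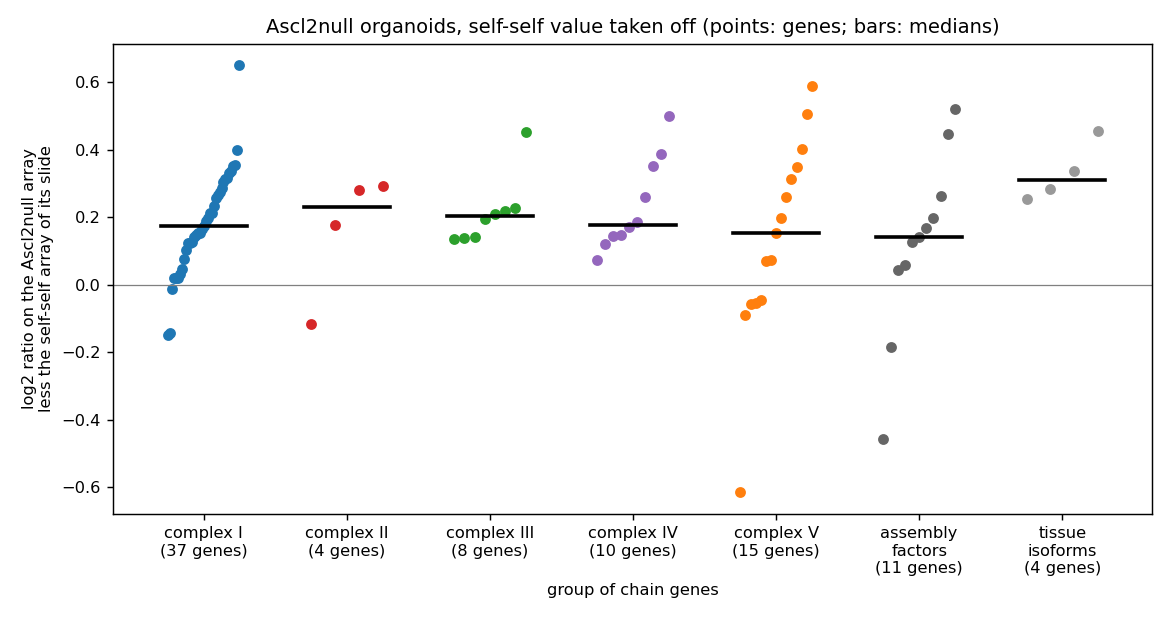
Log2 ratio on the Ascl2null array less the self-self array of its slide (vertical axis) for each chain gene, by complex or role, with medians as bars. The medians of complexes I to V lie between 0.15 and 0.23, and Atp5j2 at -0.61 is the lowest point.

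The largest values among the common subunits in that difference were Ndufb5 (an accessory subunit of complex I) at 0.65, Atp5g3 at 0.59, Atp5c1 at 0.51, Cox6a1 (the common isoform of complex IV subunit 6a) at 0.50 and Uqcrfs1 at 0.45. Atp5j2, the f subunit of ATP synthase, was the lowest at -0.61. Its 2 probes gave -0.30 and -0.69 before the self-self array was taken off, beside 0.11 and 0.13 on that array. The first probe was bright (mean log2 intensity 15.6). The second was dim (6.7), with both channels well above background on 5 of the 8 arrays, so the place of Atp5j2 beyond 1.5-fold depends on the dim probe. The core subunits of complex I had a median of 0.15 and its accessory subunits 0.18. The rotary F1 part of ATP synthase had a median of 0.07, with 3 of 5 above 0, and its membrane and stalk part Fo 0.23, with 7 of 10 above 0. Of subunits whose promoter window held the NRF1 letters, as in Atp5g3 and Sdhd, 18 of 20 were above 0 with a median of 0.23, and of the rest 36 of 43 with a median of 0.15. With the form 1 base longer these were 16 of 17 (median 0.26) and 38 of 46 (median 0.16). Before the self-self array was taken off, the medians with and without the NRF1 letters were both 0.16. The other motifs gave, after subtraction, 0.19 with and 0.17 without the GABPA letters, and 0.15 with and 0.19 without the YY1 letters. These are descriptions of a single array. Other lists moved far more on it. The enterocyte markers had a median of 1.22, with Alpi at 1.90, Apoa4 at 1.74, Lct at -0.58 and Sis at -0.61. The crypt base stem cell markers had a median of -0.78 and the enteroendocrine markers 4.62. Their part in the chain gene values was not tested.

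Subtracting the self-self array changed which genes stood out. Cox7b of complex IV was at 0.63 on the Ascl2null array beside 0.44 on the self-self array, which leaves 0.19, and Atp5b, the catalytic beta subunit of ATP synthase, at 0.56 beside 0.49, which leaves 0.07. In experiment 2 the dsGFP self-self array gave 0.66 for Ndufa13 of complex I, 0.57 for Uqcrh and 0.53 for Cox6a1. Ndufa13 was at 0.08, 0.06 and -0.25 on the 3 condition arrays of that slide, so its values beyond 1.5-fold after subtraction (-0.59, -0.61 and -0.91) come from the self-self array.

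The assembly factors did not follow the subunits in the ratios themselves. On the Ascl2null array they had a median of -0.09, with 4 of 11 above 0. On the self-self array 1 of 11 was above 0, and after subtraction the median was 0.14 with 9 of 11 above 0. Cox16, needed to insert copper into complex IV, was at -0.43 and -0.25 on the Ascl2 transduced arrays and 0.35 on the Ascl2 over expressing array. It was at 0.64 in Tcf7l2null/Ascl2 over expressing organoids, 0.00 in Tcf7l2null organoids and 0.45 in Ascl2null organoids, beside 0.05 and -0.07 on the self-self arrays. Its 2 probes differed by at most 0.14. The overexpression values of the experiments had opposite signs, a difference of 0.74 ± 0.19 (SE, limma adjusted p = 0.26).

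Cox19, a protein of copper handling for complex IV, was at -0.05 and 0.01 on the Ascl2 transduced arrays and at -0.52, -0.43 and -0.58 on the Ascl2 over expressing, Tcf7l2null/Ascl2 over expressing and Ascl2null arrays. It was at -0.05 on the Tcf7l2null array, and the self-self arrays gave 0.01 and -0.13. How many of all genes divide the arrays in this way was not counted. Its 3 probes differed by up to 0.68. On the Tcf7l2null/Ascl2 over expressing array the brighter probes were at -0.58 and -0.69 and the dim one (mean log2 intensity 6.9) at -0.01. On the Ascl2 over expressing array these were -0.64, -0.79 and -0.12. Cox19 and Cox7a2l were chosen after their values were seen. Cox17, the copper chaperone of complex IV, could not be read as a gene because its probes disagreed. The probe of an expressed sequence tag was at 1.86 on the self-self array of experiment 3 and 1.53 on the Ascl2null array, while the other probe stayed between -0.13 and 0.23 on all arrays. Sdha also had probes that differed, by up to 1.24 on the Ascl2null array.

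Other mitochondrial genes were set beside the chain. None passed the test of Ascl2 overexpression: 0 of 9 chain genes outside the naming rule, such as cytochrome c (Cycs), 0 of 17 genes of the TCA cycle, 0 of 76 of the mitochondrial ribosome, 0 of 21 of protein import, 0 of 6 of fission and fusion and 0 of 14 regulators. At an unadjusted p under 0.05, 4 of the 9 chain genes outside the rule were lower and 0 higher, against 1261 lower and 1122 higher of all 19166 genes (12.4% in either direction), with a median fitted difference of -0.18. Cycs among them was at -0.37 and -0.40 on the Ascl2 transduced arrays and -0.03 on the Ascl2 over expressing array (fitted -0.28 ± 0.10, limma adjusted p = 0.33). At the same threshold 7 of 76 ribosome genes were higher and 0 lower, a share below that of all genes, with a median fitted difference of 0.07. The import genes had 3 higher and 0 lower, the TCA cycle genes 2 higher and 2 lower, the regulators 0 higher and 3 lower, and the fission and fusion genes 0 in either direction. On the Ascl2null array less its self-self array, the chain genes outside the rule had a median of 0.29 with 8 of 9 above 0, beside 0.18 for the subunits. The TCA cycle genes had 0.10 with 12 of 17 above 0, and the ribosome genes 0.11 with 56 of 76. Of the regulators, Nrf1 was at 0.09, Gabpa at -0.24, Esrra (an oestrogen-related receptor) at 0.15 and Yy1 at -0.19 on the Ascl2null array, beside 0.24, -0.43, 0.22 and -0.13 on its self-self array.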

How the data were processed

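Spot intensity values of both dyes and their local backgrounds were deposited as Agilent Feature Extraction 10.5.1.1 output, per the file headers, with a log10 ratio of Cy5 over Cy3 computed by that software. The authors' deposited table holds log2 values, which matched the scanner ratios on the arrays of experiments 2 and 3. In experiment 1 between 8.49% and 8.7% of the values differed by over 0.02, and the sources used here do not give how they were made. Total RNA was labelled with the 2-colour Quick Amp kit, per the labels. Of 45018 spots per array, 1639 were controls and 0 were saturated, between 50.1% and 67.4% were well above background, and precision is limited by how few arrays there are.

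Median spot and background signals were corrected with normexp (offset 50) and normalized by loess within each array in limma 3.58.1 (R 4.3.3), and every ratio was turned to own RNA over control. Spots whose background exceeded 3 times the array's median background were given the median for the background fit and then left out. This step was added after seeing the data, because 77 such spots on replicate 2 of experiment 1, with backgrounds up to 407956 against a median of 34, had compressed all ratios of that array. Outlier spots were left out. A probe was kept if well above background in a channel on at least 2 arrays (27644 of 41174 probes, 19166 of 28146 gene names), and a gene is the mean of its kept probes. Probe coordinates are mm9, per the file headers. RefSeq accessions were found for 124 of the 138 chain probes, and Atp5f1 (Atp5pb), Atp5s (Dmac2l), Atp5sl (Dmac2) and Cox4nb (Emc8) have newer symbols. Ndufa4, named for complex I, is now placed in complex IV and was counted by its name.

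The first model held a dye term, a shared Ascl2 overexpression effect over 3 arrays and a term for each single array (3 residual degrees of freedom). The second gave each experiment its own effect (2 residual degrees of freedom). Both used limma's moderated test, with p-values adjusted over all genes (Benjamini-Hochberg, threshold 0.05), and were tested on simulated data. Of single arrays, values, counts at 1.5-fold and 2-fold and the difference from the self-self array of the slide are given. Slide and experiment cannot be told apart. Named genes were all of complex II, the 3 highest and lowest subunits of each complex on each array, the catalytic and core subunits, and isoforms or assembly factors beyond 1.5-fold, and others are named as chosen after their values were seen or to account for every member. The individual values of 1 gene are not reported here. The members and lists were chosen with earlier results of these data known. Promoter sequences are from RefSeq (GRCm38.p6), and the motif forms printed were chosen after longer NRF1 and YY1 forms had been searched. The alternatives tried were the scanner's ratio, median centring, other filters, the brightest probe, the deposited values, every spot's own background, other dye terms, subtraction of the self-self array and leaving out each array.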

Additional observations from a re-analysis of the deposited data

How the results depend on the processing

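Counts of called genes depended on the processing. With Ascl2 overexpression 15 genes passed. There were 0 with the scanner log ratio (limma, 1868 at an unadjusted p under 0.05), 0 with median centring (1176), 0 with the deposited values (1933), 0 with every spot's own background (1234, an alternative chosen after seeing the data) and 0 with a dye term per slide (3523). There were 46 with no filter on dim probes and 187 with no dye term. Leaving out an array gave 0 without replicate 1 (2326) or without replicate 2 (653) of experiment 1 and 199 without the array of experiment 2. The chain genes passing went from 0 to 1, Cox7a1, with no dye term and without the array of experiment 2, a range of 0 to 1. For experiment 2 against experiment 1, where 137 passed, 0 passed with median centring (831), 91 with every spot's own background, 332 with no dye term and between 28 and 148 without an array of experiment 1, the lower without replicate 1. A dye term per slide was not run there, since no residual degrees of freedom remain. No paired analysis was possible because only experiment 1 has replicate numbers.

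Median centring gave subunit medians of 0.48 on the Tcf7l2null array, 0.62 on the Tcf7l2null/Ascl2 over expressing array, 0.56 on the Ascl2 over expressing array, 0.015 on the Ascl2null array and 0.14 for the double condition less Tcf7l2null, and subtracting the self-self array gave -0.076 for Tcf7l2null. Chain genes at or beyond 1.5-fold follow in the order Tcf7l2null, Tcf7l2null/Ascl2 over expressing, Ascl2 over expressing, with the shares of all genes in brackets. They were 3, 2 and 4 with the scanner log ratio (24.1%, 27.2% and 23.7%). Median centring gave 21, 48 and 36 (11.7%, 12.4% and 9.77%). The brightest probe gave 2, 2 and 2 (6.92%, 10% and 7.3%), and subtracting the self-self array 4, 2 and 2 (6.07%, 8.02% and 5.13%). The deposited values gave 3 and 2 for the last 2 of these conditions (24.6% and 20.2%). The filter on all 8 arrays gave 2 and 2 for them (11.1% and 7.87%). Ascl2null organoids had 7 with the scanner log ratio (24.3%), 7 with the deposited values (24%) and 2 less the dye term (10.1%). The double condition less Tcf7l2null had 11 with the scanner log ratio (39.2%), 8 with median centring (18.2%) and 13 with the deposited values (36.9%). The cause was not tested.

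Signs also turned, in results that did not pass in any alternative. With overexpression, Cox16 was at 0.029 with median centring, and Atp5j2 at 0.011 with every spot's own background. Leaving out each array gave between -0.34 and 0.048 for Cox16, -0.21 and 0.064 for Atp5j2, -0.38 and 0.046 for Atp5e, -0.43 and 0.0027 for Sdhd, and -0.0077 and 0.57 for Cox17. In the difference between experiments, Atp5g3 was at -0.0097 with the scanner log ratio, -0.015 with the deposited values and -0.019 with own backgrounds. Ndufc2 was at -0.059 with median centring, and Cox5a at -0.088 with own backgrounds and -0.011 with no dye term. Leaving out each array of experiment 1 gave between -0.034 and 0.29 for Ndufc2, -0.11 and 0.32 for Cox5a, and -0.27 and 0.59 for Sdhd. Cox17 on the Ascl2null array was at -0.18 less the self-self array. Of the medians and counts, 86 kept their direction and size and 44 did not.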
